A study of Bos taurus with 3 samples.

Results

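The nuclear respiratory chain subunit genes are the genes of the cell nucleus that encode subunits of the 4 electron-carrying complexes of mitochondria and of ATP synthase, which is counted as complex V. They were chosen by gene symbol alone: symbols that begin with NDUFA, NDUFB, NDUFC, NDUFS or NDUFV and a digit, with UQCR, with COX4 to COX8 or with ATP5, and SDHA to SDHD, without NDUFA4L2 and the NDUFAF assembly factors. The rule gave 82 of the 21861 genes in the matrices: 36 in complex I, 4 in complex II, 8 in complex III, 16 in complex IV and 18 in complex V. NDUFA4 was placed in complex IV, where its protein is found. Of 85 nuclear subunit genes known by name, 82 were found; CYC1 and NDUFAB1 among these stand outside the symbol rule, and COX6C, COX7C and COX8C were not matched by symbol and were not analysed here. Of the 82, ATP5IF1 encodes the inhibitor of ATP synthase and COX7A2L encodes a factor that joins complexes III and IV, so neither is a subunit in the strict sense.

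The cells came from 1 healthy, untreated, wild-type Holstein-Frisian cow in its first lactation. Cells labelled mesenchymal stromal cells (MSCs) were grown from peripheral blood (PB-MSC), bone marrow (BM-MSC) and adipose tissue (AT-MSC) in DMEM of low glucose content with 30% fetal bovine serum until colonies could be seen. Each culture gave 1 single-cell library (10x Genomics 3' v3.1 chemistry), so the 3 cultures have a common donor and stand without replicates. No test was possible on single libraries; the intervals below are exact 95% intervals from the counts of unique molecular identifiers (UMIs), and they cover counting error only.

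Oxidative phosphorylation couples the oxidation of NADH and succinate to ATP synthesis. Complex I (NADH dehydrogenase) and complex II (succinate dehydrogenase, also an enzyme of the citric acid cycle) pass electrons through ubiquinone to complex III, and complex IV (cytochrome c oxidase) hands them to oxygen. The proton gradient that results drives complex V. All but complex II also hold subunits encoded by mitochondrial DNA, so both genomes must be read to build them. Macrophages are known to shift between oxidative and glycolytic metabolism with their activation, and stromal cells in culture are known for high glycolysis beside respiration.

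Cells were called from the UMI totals, giving 3192 cells in blood, 9281 in marrow and 6088 in adipose tissue, and clustered without the 82 genes. Macrophage-like clusters held 77 blood cells (2.41% of cells, interval 1.91 to 3.01%) and 514 marrow cells (5.54%, 5.08 to 6.02%), and no adipose cluster was macrophage-like. Stromal clusters held 3033 blood, 8301 marrow and 6049 adipose cells. A further 82 blood and 466 marrow cells carried macrophage and stromal markers together and were set aside as mixed, and 39 adipose cells were endothelial-like. Median UMIs per cell were 9876 in blood macrophage-like cells and 5895 in marrow macrophage-like cells, against 24920 in blood stromal, 9108 in marrow stromal and 14403 in adipose stromal cells. Between 4 and 10 called barcodes were shared by any pair of libraries.

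The clusters were named by marker genes, so the sums of these markers describe the classes and are no test of the names. The 17 macrophage markers summed to 9493 CPM (UMIs scaled to the same total in every class) in blood and 13055 CPM in marrow macrophage-like cells, against 70.9, 23.3 and 13.5 CPM in blood, marrow and adipose stromal cells. The 16 stromal markers summed to 1071 and 274 CPM in blood and marrow macrophage-like cells, against 18119, 12092 and 8544 CPM in the stromal cells of blood, marrow and adipose tissue. Neutrophil-list genes summed to 929 CPM in blood and 26650 CPM in marrow macrophage-like cells; these counts came from S100A8, S100A9, S100A12 and RETN, while CSF3R, CXCR1, CXCR2, LTF, CAMP and MPO were at 0. Collagen UMIs limit free RNA to at most 10.4% of the UMIs of blood and 2.84% of those of marrow macrophage-like cells. For stromal cells macrophage markers gave bounds of 15.6% in blood and 1.18% in marrow. In adipose stromal cells endothelial markers, at only 20.5 CPM in free RNA, gave 24.3%.

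All nuclear subunit genes together took a smaller share of UMIs in macrophage-like cells than in stromal cells of the same culture. The sum was 14351 CPM in blood and 18053 CPM in marrow macrophage-like cells, against 20983 CPM in blood, 26380 CPM in marrow and 26801 CPM in adipose stromal cells. That is 1.44% and 1.81% of all UMIs in the macrophage-like cells of blood and marrow, against 2.10%, 2.64% and 2.68% in stromal cells of blood, marrow and adipose tissue. Macrophage-like over stromal, the ratio of sums was 0.684 in blood (0.672 to 0.696) and 0.684 in marrow (0.679 to 0.690). CPM are shares of one total, and other genes fill that total differently in the 2 cell classes. The ferritin genes FTH1 and FTL, which encode the iron-storage protein and were picked after their values were seen, took 16.7% and 20.6% of UMIs in macrophage-like cells of blood and marrow, against 0.610%, 0.560% and 0.649% in stromal cells of blood, marrow and adipose tissue. Cytosolic ribosomal protein genes took 9.36% and 9.93% in the macrophage-like cells, against 23.1%, 23.8% and 22.5% in the stromal cells. With the 50 most abundant other genes of each class left out of the total, the ratio of sums was 0.783 in blood and 0.919 in marrow.

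**Figure D1:**
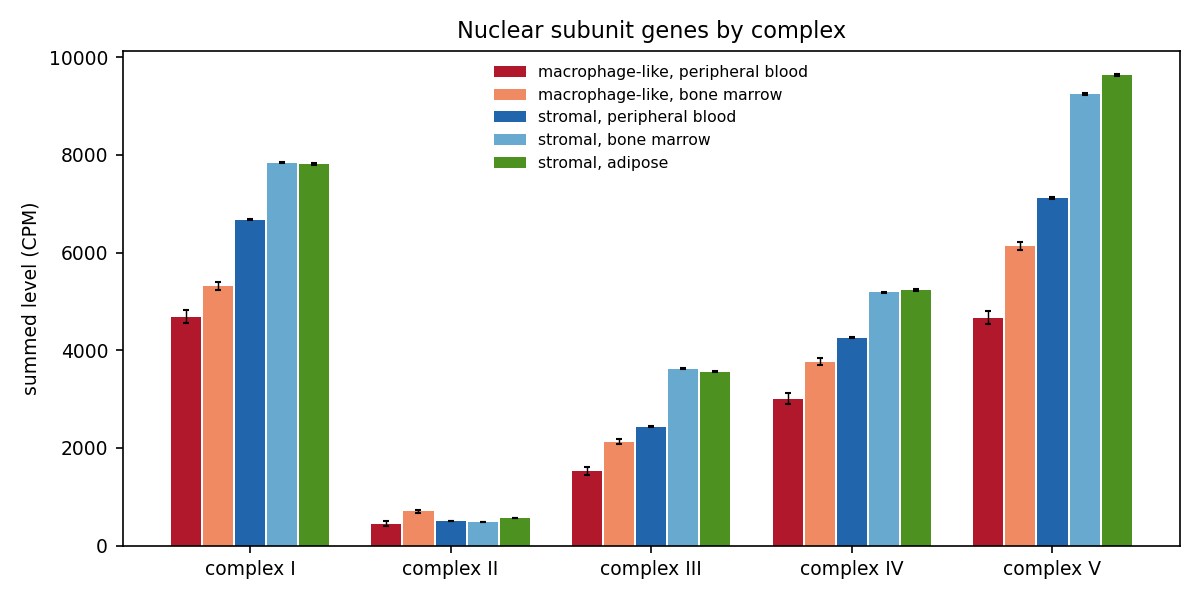
Summed level of the nuclear subunit genes of each complex (y axis, CPM) in macrophage-like cells of blood and marrow and in stromal cells of blood, marrow and adipose tissue; bars are single libraries and error bars are 95% counting intervals. Complexes I, III, IV and V were lower in both macrophage-like classes than in any stromal class, while complex II reached 706 CPM in marrow macrophage-like cells against 479 CPM in marrow stromal cells.

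A member was counted as apart when its CPM ratio was at least 1.5 in either direction and its mean over the pair was at least 10 CPM. In marrow, 40 of 77 members at that level were lower and 3 were higher in macrophage-like cells than in stromal cells. Over all genes at that level the shares were 47.7% lower and 21.2% higher, so the lower members (51.9%) lay near the background and the higher ones (3.90%) below it. A ratio above 1 was found for 14 members (18.2%, against 34% of all genes), and 15 were at least 2-fold lower (33.9% of all genes). With TMM scaling, which raises every marrow ratio by 0.32 on the log2 scale, 22 members were lower and 7 higher. All-gene shares at that scaling are not given. In blood, 38 of 76 members (50%) were lower and 4 (5.26%) higher, against 33.5% and 25.5% of all genes. Above 1 were 9 members (11.8%, against 43.9% of all genes), and 14 were at least 2-fold lower (20.5% of all genes). The median member ratio was 0.671 in blood and 0.641 in marrow, beside all-gene medians of 0.901 in blood and 0.702 in marrow. Of the lower members, 31 were the same genes in both cultures, which is 77.5% of the marrow list and 81.6% of the blood list; the higher lists shared 0 genes. Over all genes, the lower lists shared 60.5% of the marrow list and 83.4% of the blood list, and the higher lists 76.5% and 61.7%, so the overlap of lower members in blood was near the background. For 21 of the 38 lower members in blood and 35 of the 40 in marrow the whole counting interval lay past 1.5-fold. At the coarser clustering, which merges mixed cells into the blood class, 0 of the 42 blood calls stayed past 1.5-fold, and 25 did under all 8 other alternatives; in marrow 18 of 43 did with the 50 most abundant other genes of each class left out of the total.

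**Figure D2:**
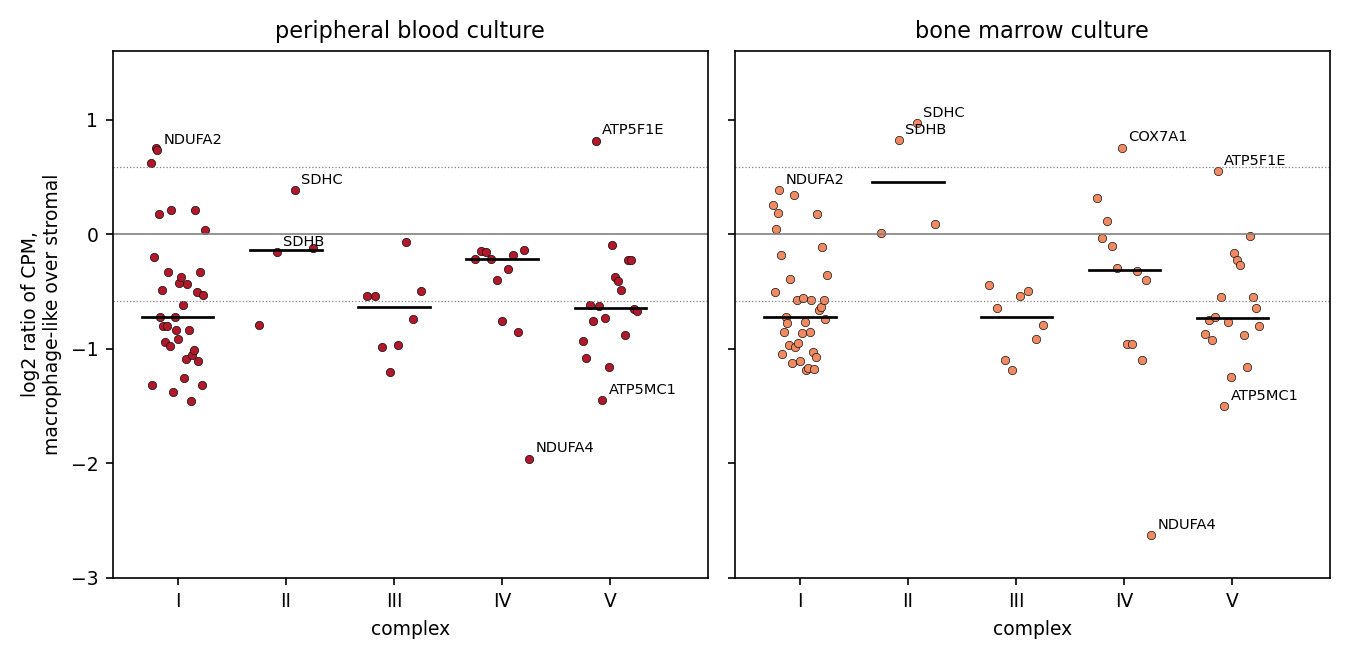
Each point is a nuclear subunit gene with a mean of at least 10 CPM, placed by complex (x axis) at its log2 ratio of CPM, macrophage-like over stromal (y axis), in the blood culture (left) and the marrow culture (right). Black bars are medians, dotted lines mark 1.5-fold; NDUFA4 lies lowest in both cultures, ATP5F1E is among the highest in both, and SDHB and SDHC stand above the dotted line in marrow.

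Complex I subunits were lower as a group, with a few membrane-arm and accessory genes on the other side. Their sum was 4689 CPM in blood and 5317 CPM in marrow macrophage-like cells, against 6677, 7843 and 7807 CPM in blood, marrow and adipose stromal cells, giving ratios of 0.702 in blood (0.681 to 0.724) and 0.678 in marrow (0.668 to 0.688). In blood 19 of 35 members (54.3%) were at least 1.5-fold lower, against 33.5% of all genes. In marrow 20 of 35 (57.1%) were, against 47.7%. Higher by that fold were 3 members in blood (8.57%, against 25.5%) and 0 in marrow (against 21.2%).

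NDUFB9, an accessory subunit of the membrane arm, had ratios of 0.419 in blood and 0.440 in marrow. The core subunit NDUFS3 gave 0.481 in blood, on 36 UMIs, and 0.442 in marrow. NDUFV1, which binds NADH, gave 0.401 in blood on 40 UMIs and 0.673 in marrow. The accessory subunits NDUFA10 and NDUFB2 gave 0.40 and 0.385 in blood, on 56 and 25 UMIs, against 0.702 and 0.505 in marrow. Over 9 alternative settings their blood ratios ran from 0.301 to 0.819 and from 0.278 to 0.877. These core and accessory genes were lower in macrophage-like cells of both cultures, by unequal amounts that rest on few UMIs in blood.

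NDUFA2, a small accessory subunit of the matrix arm, went the other way, with 239 CPM in blood and 262 CPM in marrow macrophage-like cells, against 144, 202 and 191 CPM in blood, marrow and adipose stromal cells. Its ratio was 1.66 in blood (1.44 to 1.90) and 1.302 in marrow (1.22 to 1.39). NDUFA13, known also as GRIM19, had 185 CPM in blood and 155 CPM in marrow macrophage-like cells, against 110, 136 and 124 CPM in blood, marrow and adipose stromal cells. NDUFA1, a membrane-arm subunit, had 175 CPM in blood and 258 CPM in marrow macrophage-like cells, against 114, 217 and 131 CPM in the stromal cells of blood, marrow and adipose tissue. The blood ratios of NDUFA13 and NDUFA1 were 1.68 and 1.54, and their marrow ratios 1.14 and 1.19. NDUFB11 stood above 1 in both cultures too, at 1.16 in blood and 1.26 in marrow. NDUFA12 was the least abundant member of complex I in every class, at 6.70 CPM in blood and 3.18 CPM in marrow macrophage-like cells against 6.07, 10.3 and 7.90 CPM in blood, marrow and adipose stromal cells, and it fell under the level rule; it was picked after its values were seen.

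Complex II was the one complex with a higher sum in macrophage-like cells, in marrow. Its 4 genes summed to 451 CPM in blood and 706 CPM in marrow macrophage-like cells, against 502 CPM in blood, 479 CPM in marrow and 571 CPM in adipose stromal cells. The ratio was 1.47 in marrow (1.41 to 1.53) and 0.898 in blood (0.812 to 0.991). The blood ratio was 1.03 with the 50 most abundant other genes of each class left out of the total, so no direction is given for blood; the difference between the cultures has no replicate and was not tested.

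SDHC, a membrane anchor, had 130 CPM in blood and 217 CPM in marrow macrophage-like cells, against 99.1, 111 and 138 CPM in blood, marrow and adipose stromal cells. Its ratio of 1.96 in marrow (1.82 to 2.11) was the highest of all members there, and its blood ratio was 1.31 (1.08 to 1.57). SDHB, the iron-sulfur subunit, had 169 CPM in blood and 261 CPM in marrow macrophage-like cells, against 188, 147 and 175 CPM in the stromal cells of blood, marrow and adipose tissue, with ratios of 0.895 in blood and 1.77 in marrow (1.65 to 1.89). The flavoprotein gene SDHA gave 0.577 in blood and 1.01 in marrow, and the other anchor, SDHD, gave 0.919 in blood and 1.06 in marrow. In marrow SDHB and SDHC were thus apart from their stromal level, and SDHA and SDHD were near it.

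Complex III had the lowest ratio of sums of the 5 complexes in both cultures. Its sum was 1536 CPM in blood and 2128 CPM in marrow macrophage-like cells, against 2431, 3624 and 3561 CPM in blood, marrow and adipose stromal cells, giving 0.632 in blood (0.599 to 0.666) and 0.587 in marrow (0.574 to 0.601). All 8 genes were below 1 in both cultures, where 43.9% of all genes in blood and 34% in marrow were above 1. The core protein gene UQCRC1 was lowest, at 64.8 CPM in blood and 71.8 CPM in marrow macrophage-like cells, against 149, 163 and 188 CPM in blood, marrow and adipose stromal cells, with ratios of 0.435 in blood and 0.440 in marrow. UQCRFS1, the Rieske iron-sulfur protein, had the highest blood ratio at 0.953 and a marrow ratio of 0.709. In marrow UQCR10, a small subunit, was highest at 0.735.

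Complex IV held the member furthest apart. NDUFA4 had 213 CPM in blood and 149 CPM in marrow macrophage-like cells, against 830 CPM in blood, 917 CPM in marrow and 1013 CPM in adipose stromal cells, so both macrophage-like values lay below all 3 stromal ones. Its ratio was 0.257 in blood (0.222 to 0.296) and 0.162 in marrow (0.148 to 0.177), the lowest of all members at the level rule in both. Among single stromal clusters NDUFA4 ran from 751 to 1044 CPM in blood, 863 to 1006 CPM in marrow and 872 to 1127 CPM in adipose tissue. The blood ratio was 0.775 at a coarser clustering that merged the 77 macrophage-like cells with the 82 mixed ones, which carry more UMIs each and had 753 CPM of NDUFA4.

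NDUFA4 has a paralog that is known to take its place in complex IV of inflamed human and mouse cells, where a microRNA from the same transcript lowers NDUFA4. The bovine symbol is C10H15orf48, and it was picked after earlier values were known. It had 29.0 CPM in blood and 107 CPM in marrow macrophage-like cells, against 2.96, 10.9 and 2.24 CPM in blood, marrow and adipose stromal cells. Macrophage-like over stromal, the ratio was 9.81 in blood (6.28 to 14.7) and 9.85 in marrow (8.71 to 11.1). These are tags of transcript ends, which do not grow with transcript length. How fully each gene was counted was not measured, so ratios of their UMIs are not transcript proportions. There were 7.35 NDUFA4 UMIs per C10H15orf48 UMI in blood and 1.39 in marrow macrophage-like cells. In blood, marrow and adipose stromal cells there were 280, 84.2 and 453. The replacement of one protein by the other was not measured.

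**Figure D3:**
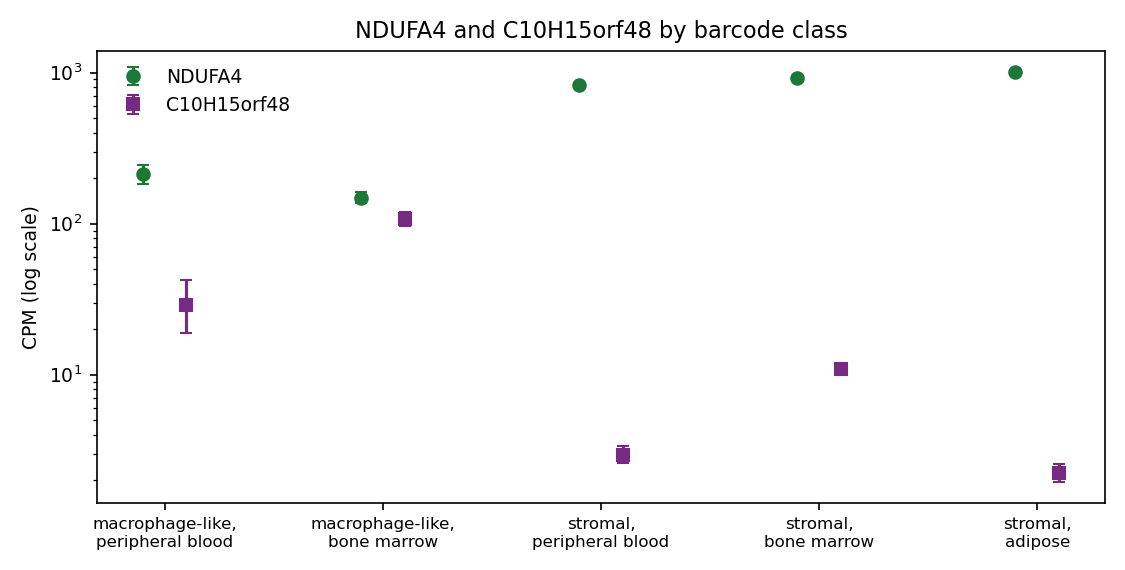
Level (y axis, CPM, log scale) of NDUFA4 and of its paralog C10H15orf48 in macrophage-like cells of blood and marrow and in stromal cells of blood, marrow and adipose tissue; points are single libraries and bars are 95% counting intervals. NDUFA4 was at 213 and 149 CPM in the macrophage-like classes and at 830 CPM or above in the stromal classes, while C10H15orf48 was at 29.0 and 107 CPM in the macrophage-like classes and at 10.9 CPM or below in the stromal ones.

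The other complex IV genes lay nearer to their stromal level. The complex summed to 3003 CPM in blood and 3767 CPM in marrow macrophage-like cells, against 4258, 5184 and 5232 CPM in blood, marrow and adipose stromal cells. The median member ratio was 0.860 in blood and 0.806 in marrow, the highest of the complexes after complex II. COX4I1, which encodes the common form of a regulatory subunit, had 566 CPM in blood and 820 CPM in marrow macrophage-like cells, against 657, 657 and 688 CPM in blood, marrow and adipose stromal cells, and was the most abundant complex IV member in both macrophage-like classes. In stromal cells NDUFA4 was the most abundant one. COX5A and COX5B gave 0.903 and 0.900 in blood, and 0.977 and 1.08 in marrow.

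Complex IV also has the paralog pairs of the chain, whose second forms are known from muscle, lung or testis, and here the common form carried most UMIs of each pair followed. COX6A2, the muscle form, had 0 UMIs in all 5 classes, whereas COX6A1 had 435 CPM in blood and 499.7 CPM in marrow macrophage-like cells, against 506, 537 and 593 CPM in blood, marrow and adipose stromal cells. COX4I2, the lung form, had 0 UMIs in both macrophage-like classes, which allows up to 3.35 CPM in blood and 0.868 CPM in marrow, and 0.0944, 0.103 and 0.0742 CPM in blood, marrow and adipose stromal cells. COX6B2, the testis form, had 1 UMI in blood and 0 in marrow macrophage-like cells, against 1.18, 3.95 and 1.43 CPM in blood, marrow and adipose stromal cells, while COX6B1 was between 262 and 479 CPM in all 5 classes. COX8B, the heart form, had 4 UMIs in blood and 10 in marrow macrophage-like cells, or 4.47 and 2.89 CPM, against 0.0944, 0.194 and 0.201 CPM in blood, marrow and adipose stromal cells; COX8A was between 239 and 388 CPM.

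COX7B2 and COX7A1 were the second forms with the largest shares in the stromal classes and in marrow macrophage-like cells. COX7B2, a paralog of COX7B known from testis, had 11.2 CPM in blood and 7.52 CPM in marrow macrophage-like cells, against 20.2, 16.1 and 37.2 CPM in blood, marrow and adipose stromal cells. That was 8.70% and 4.46% of the COX7B and COX7B2 UMIs in macrophage-like cells of blood and marrow, against 13.1%, 7.41% and 17.7% in stromal cells of blood, marrow and adipose tissue. COX7A1, the muscle form of its subunit, had 2.23 CPM in blood, on 2 UMIs, and 40.2 CPM in marrow macrophage-like cells, against 10.9, 23.8 and 12.7 CPM in blood, marrow and adipose stromal cells. Its marrow ratio was 1.69 (1.41 to 2.0) but 1.04 among low-cycling cells, and its blood ratio, below the level rule, was 0.205. COX7A2, the common form, had 312 CPM in blood and 453 CPM in marrow macrophage-like cells, against 527, 884 and 755 CPM in the stromal cells of blood, marrow and adipose tissue. COX7A2L, the supercomplex factor, had 255 CPM in blood and 165 CPM in marrow macrophage-like cells, against 315, 320 and 350 CPM in those stromal cells, with ratios of 0.809 in blood and 0.514 in marrow. Between the macrophage-like cells of the 2 cultures, COX7A1 was thus higher in marrow, with 2 UMIs in blood, and COX7A2L was higher in blood.

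Complex V was lower in macrophage-like cells, apart from its smallest catalytic-head subunit. The sum was 4670 CPM in blood and 6136 CPM in marrow macrophage-like cells, against 7115, 9249 and 9630 CPM in blood, marrow and adipose stromal cells, with ratios of 0.656 in blood (0.637 to 0.677) and 0.663 in marrow (0.654 to 0.673). In each culture 11 of 18 genes (61.1%) were at least 1.5-fold lower, beside 33.5% of all genes in blood and 47.7% in marrow. Below 1 were 17, which left 1 (5.56%) above 1, beside 43.9% of all genes in blood and 34% in marrow. ATP5F1E, the epsilon subunit, had 572.8 CPM in blood and 762.4 CPM in marrow macrophage-like cells, against 325, 522 and 412 CPM in blood, marrow and adipose stromal cells. It was the gene above 1, at 1.76 in blood (1.61 to 1.92) and 1.46 in marrow (1.40 to 1.52). The catalytic subunit gene ATP5F1B gave 0.474 in blood and 0.596 in marrow, and ATP5F1A gave 0.525 in blood and 0.547 in marrow. The peripheral stalk gene ATP5PB was near its stromal level, at 0.856 in blood and 0.987 in marrow. The inhibitor gene ATP5IF1 gave 0.647 in blood and 0.682 in marrow.

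Subunit c, which forms the rotating ring, is encoded by ATP5MC1, ATP5MC2 and ATP5MC3, whose mature proteins are the same and whose reads may be split unevenly by the counting. ATP5MC1 had 161 CPM in blood and 168 CPM in marrow macrophage-like cells, against 439, 477 and 581 CPM in blood, marrow and adipose stromal cells, and ratios of 0.366 in blood (0.309 to 0.431) and 0.353 in marrow (0.324 to 0.383). ATP5MC3 gave 0.448 in blood and 0.421 in marrow, and ATP5MC2 gave 0.603 in blood and 0.587 in marrow. ATP5MC3 was the main source in every class, with 62.1% and 65.8% of subunit c UMIs in blood and marrow macrophage-like cells and 62.9%, 66.6% and 69.0% in blood, marrow and adipose stromal cells. ATP5MC2 made up 19.9% and 16.5% in the macrophage-like cells, against 15%, 12% and 10.4% in the stromal cells.

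The 13 subunits encoded by mitochondrial DNA had a higher sum in marrow macrophage-like cells, where the nuclear ones had a lower one, and COX1 made up most of the difference. They summed to 16163 CPM in blood and 30624 CPM in marrow macrophage-like cells, against 24654 CPM in blood, 25076 CPM in marrow and 29940 CPM in adipose stromal cells. The ratio was 0.656 in blood (0.645 to 0.666) and 1.22 in marrow (1.21 to 1.23). Without COX1 the marrow ratio was 1.02 (1.02 to 1.03) and the blood ratio 0.636. The median gene ratio was 0.734 in blood and 0.989 in marrow, where 7 of the 13 were below 1. Nuclear UMIs per mitochondrially encoded UMI were 0.888 in blood and 0.590 in marrow macrophage-like cells, against 0.851, 1.05 and 0.895 in blood, marrow and adipose stromal cells.

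COX1, the catalytic subunit of complex IV, had 2791 CPM in blood and 8892 CPM in marrow macrophage-like cells, against 3635, 3872 and 4398 CPM in blood, marrow and adipose stromal cells, a ratio of 0.768 in blood and 2.30 in marrow. ATP6 gave 0.930 in blood and 1.65 in marrow. These were the 2 of the 13 genes (15.4%) at least 1.5-fold higher in marrow, with 0 lower by that fold. Over all genes the marrow shares were 21.2% higher and 47.7% lower. COX3 gave 0.528 in blood and 0.843 in marrow, and CYTB gave 0.522 in blood and 0.927 in marrow. In blood, 3 of the 13 (23.1%) were lower by that fold and 1 (7.69%), ATP8, on 16 UMIs, was higher. Over all genes the blood shares were 33.5% lower and 25.5% higher.

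Genes that build or feed the chain were taken from lists. Of 53 assembly factor genes, 14 of the 40 at the level rule were at least 1.5-fold lower and 2 higher in macrophage-like cells of blood, and in marrow 26 of 42 were lower and 0 higher. As shares, 35% were lower in blood and 61.9% in marrow, beside 33.5% and 47.7% of all genes, so the blood share was near the background. Higher were 5% in blood and 0% in marrow, beside 25.5% and 21.2% of all genes. NDUFAF2, an assembly factor of complex I, was lowest in blood at 0.121, on 2 UMIs in macrophage-like cells, with 0.231 in marrow, on 28 UMIs. Of 18 citric acid cycle and pyruvate dehydrogenase genes, 11 of 17 (64.7%) were lower in blood, beside 33.5% of all genes. In marrow 7 of 17 (41.2%, under the 47.7% of all genes) were lower. In either culture 0 were higher, beside 25.5% of all genes in blood and 21.2% in marrow. IDH3A, a subunit of isocitrate dehydrogenase, was lowest, at 49.1 CPM in blood and 28.6 CPM in marrow macrophage-like cells against 185, 233 and 182 CPM in blood, marrow and adipose stromal cells. The 76 mitochondrial ribosomal protein genes were lower still than the subunit genes. Their ratio of sums was 0.628 in blood and 0.488 in marrow. Lower by 1.5-fold were 55 of 74 members (74.3%) in blood and 67 of 74 (90.5%) in marrow, beside 33.5% and 47.7% of all genes. The cytosolic ribosomal protein genes had ratios of 0.405 in blood and 0.417 in marrow.

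Glycolysis genes were set beside them. Their sum was 13969 CPM in blood and 7735 CPM in marrow macrophage-like cells, against 12990, 11381 and 11449 CPM in blood, marrow and adipose stromal cells, a ratio of 1.08 in blood (1.06 to 1.09) and 0.680 in marrow (0.671 to 0.688). In blood, 6 of 17 genes (35.3%) were at least 1.5-fold higher in macrophage-like cells, beside 25.5% of all genes, and 1 (5.88%) was lower, beside 33.5%. In marrow, 3 of 16 (18.75%) were higher and 5 (31.25%) lower, under the 21.2% and 47.7% of all genes. The genes higher in both cultures were the aldolase ALDOC, the glucose transporter SLC2A1 and the lactate exporter SLC16A3, which is known also as MCT4. SLC16A3 had 115 CPM in blood and 47.7 CPM in marrow macrophage-like cells, against 16.5, 21.5 and 2.72 CPM in blood, marrow and adipose stromal cells. HIF1A, the oxygen-regulated factor that drives glycolytic genes, had 568 CPM in blood and 455 CPM in marrow macrophage-like cells, against 124, 159 and 66.6 CPM in the stromal cells. Of the 14 regulators of mitochondrial genes, PPARGC1A, the coactivator known for mitochondrial biogenesis, had 0 UMIs in both macrophage-like classes and 0.366, 0.514 and 1.24 CPM in blood, marrow and adipose stromal cells. TFB2M, a factor of mitochondrial transcription, had 11.2 and 19.1 CPM in the macrophage-like cells of blood and marrow, against 60.1, 82.3 and 73.5 CPM in stromal cells.

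Among stromal cells, those from blood stood below those from marrow and adipose tissue, which were near each other. The ratio of sums was 0.795 for blood over marrow (0.794 to 0.797), 0.783 for blood over adipose tissue (0.781 to 0.784) and 0.984 for marrow over adipose tissue (0.983 to 0.986). The marrow over adipose ratio changed side of 1 under 5 of 13 alternative settings, so no order is given for these 2. By complex, blood over marrow gave 0.851 for complex I, 1.05 for complex II, 0.671 for complex III, 0.821 for complex IV and 0.769 for complex V.

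In blood over marrow stroma, 20 of 77 members (26.0%) were at least 1.5-fold lower and 0 were higher, against 7.44% and 8.32% of all genes. At 2-fold, 8 were lower and 0 higher, against 2.85% and 3.77% of all genes, and 15 (19.5%) had a ratio above 1, against 48.3%. The median member ratio was 0.851, beside 0.991 over all genes. Against adipose stroma, 11 of 77 members (14.3%) were lower in blood and 0 higher, beside 5.66% and 8.05% of all genes. At 2-fold these were 0 and 0, beside 1.46% and 3.61% of all genes, and 7 (9.09%) had a ratio above 1, beside 39.3%; the 2 comparisons share the blood cells. Between marrow and adipose stroma, 5 members (6.49%) were higher and 1 (1.299%) lower in marrow, near or under the background of 6.75% and 6.33%. At 2-fold 0 were higher and 1 lower, with 3.34% and 2.73% of all genes, and 31 (40.3%) had a ratio above 1, with 38.8% of all genes.

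The members at least 2-fold lower in blood than in marrow stroma came from complexes I, III, IV and V. NDUFB1, a membrane-arm subunit of complex I, had 153 CPM in blood stromal cells, against 344 CPM in marrow and 227 CPM in adipose stromal cells, a blood over marrow ratio of 0.445 (0.436 to 0.454). NDUFA3, also of the membrane arm, had 40.5 CPM in blood, 88.5 CPM in marrow and 58.7 CPM in adipose stromal cells. ATP5MK, a small protein of the ATP synthase membrane part, had 172 CPM in blood, 383 CPM in marrow and 297 CPM in adipose stromal cells. ATP5MJ, ATP5ME and ATP5MF of the same part gave blood over marrow ratios of 0.466, 0.470 and 0.478. UQCRQ of complex III gave 0.490, and COX7A1 of complex IV gave 0.458. In blood these genes lay below both other stromal classes.

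On the other side, SDHB had 188 CPM in blood stromal cells, against 147 CPM in marrow and 175 CPM in adipose stromal cells, and the highest ratio of all members, 1.28 (1.25 to 1.31). COX7B2 gave 1.25 for blood over marrow and 0.542 for blood over adipose tissue. NDUFB8 and NDUFB10, accessory subunits of the complex I membrane arm, gave 1.18 and 1.13 for blood over marrow, and ATP5MC2 gave 1.12. Of the catalytic-head genes of ATP synthase, ATP5F1A gave 0.743 and ATP5F1B 0.998. NDUFV1 gave 1.06, and UQCRC2 and COX4I1 gave 1.00. These 5 genes were picked after values were seen.

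The same 20 genes were below 1 for blood over marrow in 2 other fractions of these libraries. These fractions are not independent of the stromal values by which the 20 were picked. Most called cells of both libraries were stromal, so free RNA may hold largely stromal transcripts. Macrophage-like cells may in turn hold free RNA, up to the bounds given above. The source of free RNA was not tested, so the counts below are descriptions and no separate test. In macrophage-like cells all 20 had a ratio below 1, and 13 were at least 1.5-fold lower. Of the other 57 members 41 were below 1 and 7 lower by that fold. Over all genes in these cells, 8.76% were lower by that fold and 72.2% had a ratio above 1. In free RNA (barcodes of 10 to 100 UMIs) all 20 were again below 1, 9 of them by at least 1.5-fold. Of the other 57, 26 were below 1 and 0 by that fold. No share over all genes is given for free RNA, so these counts stand without a background. NDUFB1 gave 0.465 in macrophage-like cells and 0.455 in free RNA, beside 0.445 in stromal cells. In marrow over adipose stroma, which uses the same marrow cells, all 20 were above 1, beside 31 of all 77 members and 38.8% of all genes. NDUFA1 gave 1.65 and ATP5ME 1.59 there. Of 78 cytosolic ribosomal protein genes at the level rule, 14 (17.9%) were at least 1.5-fold lower in blood than in marrow stroma. RPS28 was lowest at 0.465, and 1 gene (1.28%) was higher. Over all genes the shares were 7.44% lower and 8.32% higher. Those ribosomal genes were picked after values were seen. Since each tissue is 1 library, library and tissue cannot be told apart here.

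**Figure D4:**
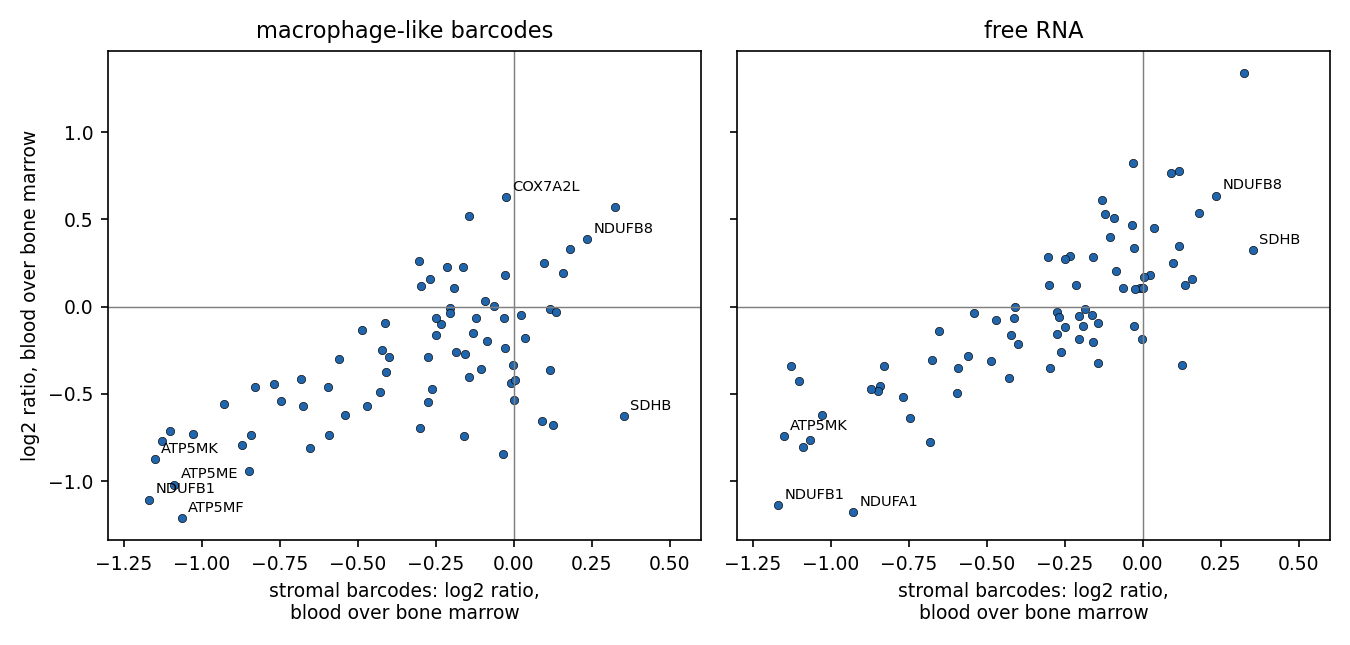
Log2 ratio of CPM, blood over marrow, of each nuclear subunit gene with a mean of at least 10 CPM in stromal cells (x axis) against the same ratio (y axis) in macrophage-like cells (left) and in free RNA (right); COX7A1, at 2 UMIs in blood macrophage-like cells, is not drawn. The drawn genes at least 1.5-fold lower in stroma all lie below 0 on the y axis of both panels, with NDUFB1 at the far left; in free RNA NDUFB3 (ratio 0.909) and NDUFB4 (0.809) lie close to 0.

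Between the macrophage-like cells, blood stood below marrow. The ratio of sums was 0.795 (0.780 to 0.810), and 20 of 76 members (26.3%) were at least 1.5-fold lower and 1 (1.32%) higher in blood, against 8.76% and 32.5% of all genes. At 2-fold, 4 were lower and 0 higher, against 4.04% and 13.9%, and 15 (19.7%) had a ratio above 1, against 72.2% of all genes. With TMM scaling 43 were lower and 0 higher, and the ratio of sums was 0.635. TMM shifts the ratio of every gene in this pair by -0.324 on the log2 scale. The all-gene shares above are without TMM, so the TMM counts stand without a background. The lowest were COX7A1 at 0.0555 (0.00666 to 0.204), ATP5MF at 0.432, NDUFB1 at 0.465, ATP5ME at 0.493 and UQCR10 at 0.521. The highest were COX7A2L at 1.55 (1.32 to 1.81), NDUFA4 at 1.43, NDUFB8 at 1.31, NDUFB10 at 1.26 and NDUFA13 at 1.2. Complex II gave 0.639 (0.574 to 0.710), the lowest of the complexes. With the coarser clustering, which merges mixed cells into the blood class, the ratio of sums was 1.05, so this comparison depends on where the 77 cells are drawn. The cultures differ in cycling as well: cell cycle genes took 2950 CPM in blood and 887 CPM in marrow macrophage-like cells, and among low-cycling cells alone the ratio was 0.778.

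Within a culture the stromal clusters were close to each other. The sum ran from 19555 to 22731 CPM over 14 blood clusters, 25383 to 28436 CPM over 10 marrow clusters and 24526 to 29964 CPM over 11 adipose clusters. No blood cluster reached the lowest marrow or adipose cluster, and both macrophage-like clusters lay below all stromal clusters of their own culture and of the others. The spread over clusters was 1.16-fold in blood, 1.12-fold in marrow and 1.22-fold in adipose tissue. ATP5MC1 varied most among 6 members followed by cluster in blood, from 299 to 574 CPM (1.92-fold), apart from COX7A1, which varied 2.36-fold at 7.63 to 18.0 CPM. Across the 11 adipose clusters the sum went with the ribosomal protein level (Pearson r 0.825, Spearman rho 0.736); over 14 blood clusters the values were -0.107 and -0.231 and over 10 marrow clusters 0.488 and 0.515. Clusters share a library and a CPM total, so these are descriptions.

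**Figure D5:**
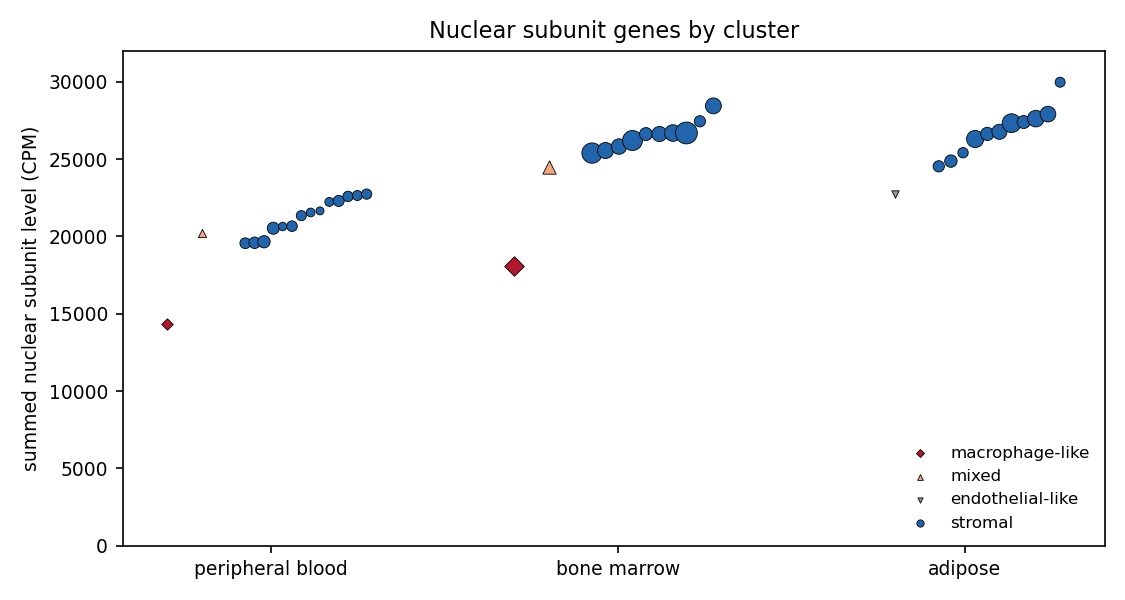
Summed level of the nuclear subunit genes (y axis, CPM, from 0) in each cluster of the blood, marrow and adipose cultures; symbols mark the class of a cluster, and larger symbols hold more cells. Blood stromal clusters end at 22731 CPM, under the lowest marrow (25383 CPM) and adipose (24526 CPM) stromal clusters, and the macrophage-like clusters lie at 14351 CPM in blood and 18053 CPM in marrow.

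Cycling went with a lower complex IV share in all 3 cultures, and with lower complex I and III shares in marrow and adipose tissue. Stromal cells with at least 0.5% of UMIs in cell cycle genes were set against those under 0.1%. The sum over all members, cycling over low-cycling, was 1.00 in blood (1091 and 470 cells), 0.946 in marrow (3312 and 688 cells) and 0.919 in adipose tissue (3170 and 291 cells). Complex IV was lower in cycling cells of all 3 cultures, at 0.923, 0.882 and 0.856 in blood, marrow and adipose tissue. Complex V gave 1.07, 0.993 and 0.949 in the same tissues. There complex I gave 1.00, 0.942 and 0.929, complex II 0.986, 0.998 and 0.946, and complex III 0.988, 0.928 and 0.911. Macrophage-like over stromal among low-cycling cells gave 0.670 in blood and 0.654 in marrow.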

How the data were processed

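The deposited values are raw UMI counts for each gene in each barcode. The authors made them with Cell Ranger: the submitters' processing notes give version 6.1.1 and build ARS-UCD1.2, and per the file headers the version is 4. The libraries held 98016815 UMIs in blood, 106322567 in marrow and 99356868 in adipose tissue.

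Cells were barcodes with no fewer UMIs than 1/10 of the 99th percentile over the 3000 largest, at least 500 genes and at most 20% mitochondrial UMIs. Each library was clustered alone in scanpy 1.11.5 (2000 variable genes without the members and mitochondrial genes, 30 components, 15 neighbours, Leiden resolution 1, seed 1), and clusters were named by markers. No doublet caller was run; mixed clusters were set aside. UMIs were summed per class and scaled to CPM. Ratios carry exact conditional 95% intervals, class shares exact Clopper-Pearson intervals, and a count of 0 allows up to 3 counts. TMM factors came from edgeR 4.0.16. The calculations were tested on simulated counts.

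The members, lists and markers were chosen with earlier results of these data known. Named genes were, per comparison, the 5 members of largest and of smallest ratio with a mean of at least 10 CPM, the extremes of each complex, the paralog sets, members without UMIs, matching non-subunits, mitochondrially encoded subunits and list genes at least 1.5-fold apart; a selection of these is given. Others stated as such, and members named to show a core or stalk subunit, were chosen after values were seen. Sequences and coordinates were not used here. One gene that falls under this rule is not reported here.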

Additional observations from a re-analysis of the deposited data

How the results depend on the processing

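No paired analysis was possible because each tissue has 1 library, and for the same reason no replicate could be left out. Of 143 member calls, 138 stayed on their side of 1 under 9 alternatives; the 5 others (NDUFA10 1.14, NDUFB2 1.41, NDUFA7 1.01, NDUFC1 1.01 and NDUFV1 1.39, blood over marrow macrophage-like) crossed it at Leiden resolution 0.5, which merges mixed cells into the blood class. Past 1.5-fold itself, calls that held under all 9 were 0 of 42 for macrophage-like over stromal in blood (25 without resolution 0.5), 16 of 43 in marrow (25 with TMM, 18 without the 50 genes), 19 of 20 for blood over marrow stroma, 6 of 11 for blood over adipose stroma, 3 of 6 for marrow over adipose stroma and 6 of 21 for blood over marrow macrophage-like cells (18 without resolution 0.5). The alternatives without the 5 most abundant members and without the 50 most abundant other genes were chosen after seeing the data. No ratio of sums below changed side of 1 except as stated.

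Macrophage-like over stromal in blood, the ratio of sums (0.684) was 0.907 at resolution 0.5, 0.631 with barcodes of at least 1000 UMIs classed by markers, 0.670 in low-cycling cells, 0.572 without mitochondrial and ribosomal genes in the total, 0.648 with free RNA subtracted at its bound, 0.671 as the median over members, 0.708 for strict subunits without near-identical paralogs, 0.717 without the 5 most abundant members and 0.783 without the 50 most abundant other genes in the total. In marrow (0.684) it was 0.653 with barcodes of at least 1000 UMIs, 0.654 in low-cycling cells, 0.580 without mitochondrial and ribosomal genes, 0.854 with TMM factors, 0.672 with free RNA subtracted, 0.641 as the median, 0.712 for strict subunits, 0.709 without the 5 and 0.919 without the 50 genes. Blood over marrow stroma (0.795) gave 0.794 with cells classed by marker shares, 0.793 from 1000 UMIs, 0.760 in low-cycling cells, 0.798 without the 5% of cells with most UMIs, 0.788 without mitochondrial and ribosomal genes, 0.749 with free RNA subtracted, 0.851 as the median, 0.781 for strict subunits, 0.788 without the 5 and 0.799 without the 50 genes. Blood over adipose stroma (0.783) gave 0.725 in low-cycling cells, 0.789 as a mean over cells, 0.824 with TMM, 0.796 with free RNA subtracted, 0.789 as the median, 0.791 for strict subunits, 0.797 without the 5 and 0.803 without the 50 genes.

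Marrow over adipose stroma (0.984) was above 1 with TMM (1.04), free RNA subtracted (1.06), strict subunits (1.01), and without the 5 (1.01) or the 50 genes (1.00); it was 0.986 by marker shares, 0.987 from 1000 UMIs, 0.954 in low-cycling cells, 0.991 as a mean over cells, 0.995 without mitochondrial and ribosomal genes and 0.955 as the median. Blood over marrow macrophage-like cells (0.795) crossed to 1.05 at resolution 0.5, and was 0.778 by marker shares, 0.766 from 1000 UMIs, 0.778 in low-cycling cells, 0.777 without mitochondrial and ribosomal genes, 0.635 with TMM, 0.721 with free RNA subtracted, 0.778 for strict subunits and 0.681 without the 50 genes. Free RNA was subtracted at bounds that differ between classes and rest on different marker sets, with 15.6% for blood, 1.18% for marrow and 24.3% for adipose stromal cells. Where a value moved, the cause was not tested.

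At 2-fold in place of 1.5-fold, members lower and higher were 14 and 0 for macrophage-like over stromal in blood, 15 and 0 in marrow, 8 and 0 for blood over marrow stroma, 0 and 0 for blood over adipose stroma, 1 and 0 for marrow over adipose stroma, and 4 and 0 for blood over marrow macrophage-like cells. With TMM factors, 22 were lower and 7 higher in marrow macrophage-like cells, and 6 were lower for blood over adipose stroma. For blood over marrow macrophage-like cells 43 were lower and 0 higher with TMM factors, and 3 were higher without a minimum level. TMM shifts all genes of a pair alike, and all-gene shares with it are not given. The 77 blood macrophage-like cells hold 895626 UMIs, which limits members of few counts there.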

Other observations

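The cells set aside gave values of their own. Mixed clusters had 20233 CPM of nuclear subunit genes in blood and 24471 CPM in marrow, within the range of stromal clusters in blood and below it in marrow, with NDUFA4 at 753 and 706 CPM and C10H15orf48 at 6.02 and 38.9 CPM. The 39 endothelial-like adipose cells had 22707 CPM in all, below every adipose stromal cluster, and 0 UMIs of C10H15orf48. NDUFA4L2, a paralog of NDUFA4 known to be induced at low oxygen, was outside the gene rule and was picked after its values were seen. It had 38.0 CPM in blood macrophage-like cells and 0.289 CPM, 1 UMI, in marrow ones, against 182 CPM in blood, 7.10 CPM in marrow and 9.07 CPM in adipose stromal cells. Blood over marrow stroma, its ratio was 25.6 (23.6 to 27.8).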
